A study of Mus musculus with 8 samples.

Results

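The 10 genes described here encode enzymes that make ceramide or turn it into other sphingolipids: Sptlc1, Sptlc2, Degs1, Cers2, Cers4, Cers5, Cers6, Sgms1, Ugcg and Sphk1. They were listed by name, and their probes are those whose transcript maps to one of these symbols. They were chosen by their scaled signals across all 4 groups, which every comparison below also uses, so the differences of these 10 genes, and the counts of them past a threshold, are a description; no p-value is printed for them. All 10 were on the array, with 12 probes, and all 10 were among the 22460 genes tested. Of these genes, 13802 had a symbol, and the others were counted by the transcript or other name given on the array. The probe used for a gene was above background on all 8 arrays for 9 of the 10. Cers4 was the exception, and was kept because it was above background on both control and both HF arrays.

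Ceramide is built at the endoplasmic reticulum. Serine palmitoyltransferase joins serine to a fatty acid, a reductase and a ceramide synthase follow, and a desaturase completes the molecule. Ceramide is then converted to sphingomyelin or glucosylceramide, or is broken down to sphingosine, which a kinase turns into the signalling lipid sphingosine 1-phosphate. In macrophages these lipids shape membranes, phagocytosis and inflammatory signalling.

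The cells were BV-2, an immortalised microglial line of the mouse that stands in for the brain's resident macrophages only in part. Cells without additions (control), with lipopolysaccharide from Gram-negative bacteria at 1 µg/mL (LPS), with the hexane fraction (HF) of Amauroderma rugosum, a mushroom, at 100 µg/mL, or with both (LPS+HF) were kept for 24 h. Each group had 2 arrays of Cy3-labelled RNA, 8 in all. The labels call them biological replicates without saying whether they came from separate cultures, so p-values measure only the spread between these arrays. In bulk RNA, fewer cells of a kind and less RNA per cell cannot be told apart.

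Levels below are scaled log2 signals, that is, the log2 of a spot's brightness minus the 75th percentile of its array, and each 1 unit is a doubling. They compare arrays for 1 probe, never 1 gene with another. That percentile lay at 246.5 to 286.1 brightness units without HF and at 345.6 to 526.8 with HF. HF arrays filled 1 row of the slide and LPS arrays columns 3 and 4, so slide position and treatment cannot be told apart. Control replicate 1 was uneven: its repeated probes varied by 50.9%, against 6.73% to 9.18% on the other arrays, and 14.8% of its spots lay in areas dimmed more than 4-fold. HF replicate 1 was also marked by the scanner, with 0.489% of its spots so dimmed. Some values are also given after a spatial correction that removes such local deviations, or without control replicate 1. Of 11 microglia and macrophage markers, 9 were above background on all arrays; Cx3cr1 was so on 6 and P2ry12 on 5. Their summed level was 9.02 to 9.24 in control, 9.20 to 9.22 in LPS, 8.79 to 8.84 in HF and 8.91 to 9.08 in LPS+HF. Among markers of astrocytes, neurons, oligodendrocytes and fibroblasts, Slc1a3, Syt1, Olig2, Col1a1 and Pdgfra were above background on no array, while the synaptic gene Snap25 (2.66 to 3.50) was bright on all 8. The neuron list, of which 1 of 4 genes was above background on all arrays, summed to 3.15 to 3.51 in control, 3.24 to 3.35 in LPS, 2.86 to 2.94 in HF and 2.70 to 2.93 in LPS+HF. The part of these genes in the results was not tested.

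**Figure D1:**
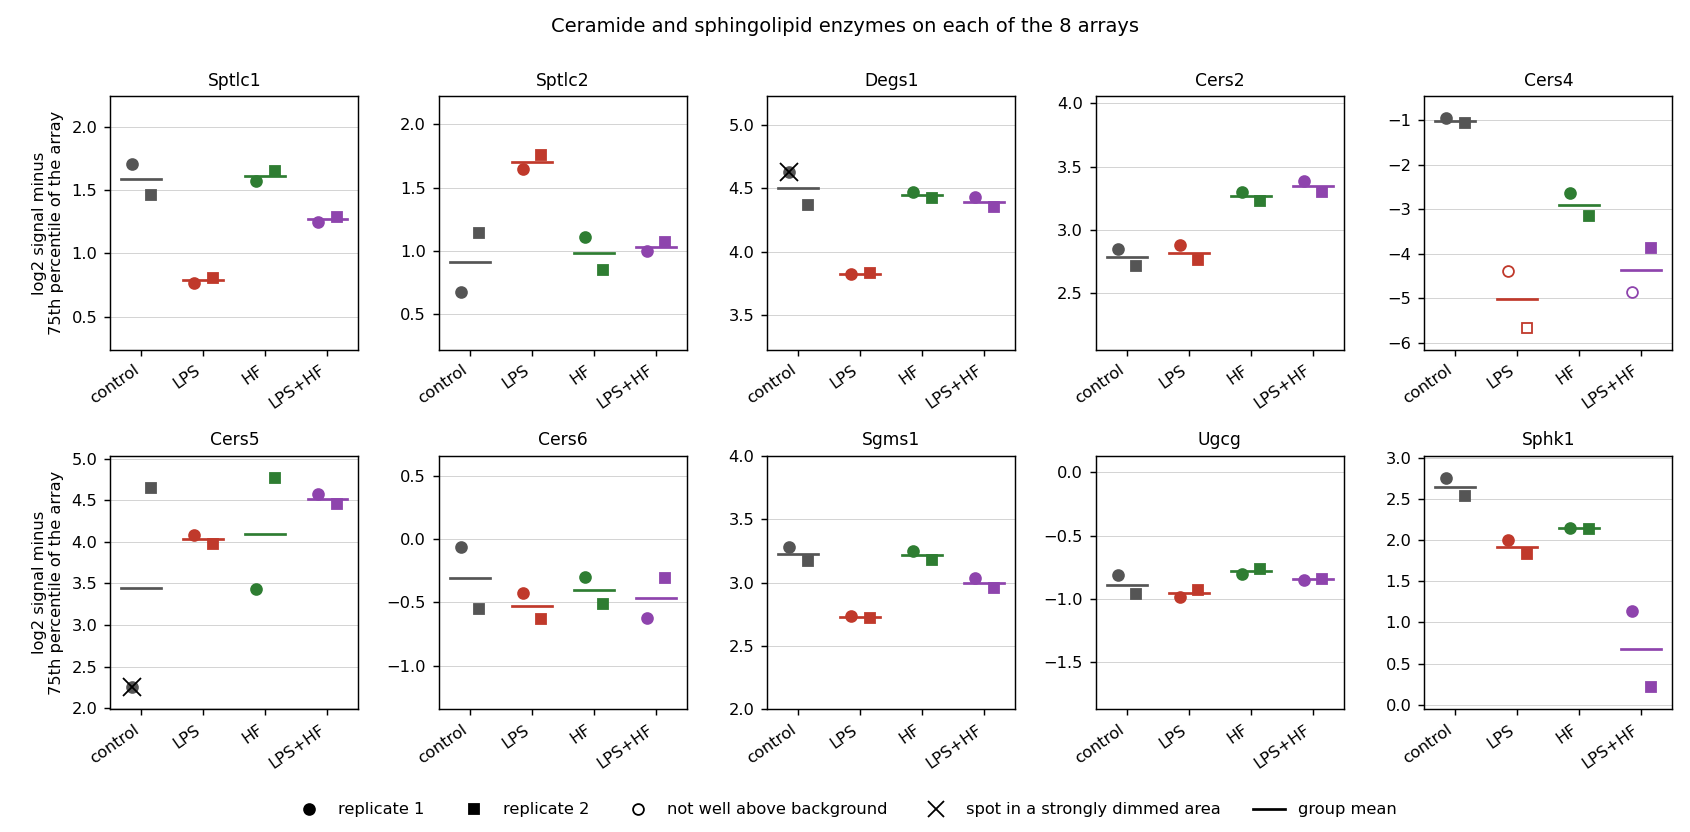
Scaled log2 signal (y axis, log2 signal minus the 75th percentile of the array) of the 10 genes in the 4 groups; circles and squares are replicates 1 and 2, lines are group means, open symbols are spots not well above background and crosses mark spots in strongly dimmed areas. Cers4 fell from about -1 in control to below -4 on both LPS arrays, Sphk1 was lowest in LPS+HF, and Sptlc1, Degs1 and Sgms1 were lowest in LPS. Each y axis spans at least 2 units and differs between panels.

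Sptlc1 and Degs1, which act at the first and the last step of ceramide synthesis, had their lowest levels with LPS. Sptlc1, the subunit that serine palmitoyltransferase cannot work without, stood at 1.71 and 1.46 on the control arrays, 0.77 and 0.81 with LPS, 1.57 and 1.65 with HF, and 1.25 and 1.29 with both. LPS arrays were the lowest, LPS+HF lay between them and the other groups without overlap, and HF overlapped control. The difference of LPS minus control was -0.79 ± 0.14 (SE, 2 arrays per group), a 1.73-fold lower signal, and it was -0.67 without control replicate 1. LPS+HF minus LPS was 0.48 ± 0.14 and LPS+HF minus HF was -0.34 ± 0.14.

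Degs1, the desaturase that puts the double bond into ceramide, followed a similar order. Its levels were 4.63 and 4.37 in control, 3.82 and 3.83 in LPS, 4.47 and 4.42 in HF, and 4.43 and 4.35 in LPS+HF. Both LPS arrays stood below all the others, and the remaining groups overlapped. LPS minus control was -0.67 ± 0.15 (1.59-fold lower), or -0.54 without control replicate 1, where the spot of this gene lay in a dimmed area. LPS+HF minus LPS was 0.56 ± 0.15, while HF minus control was -0.05 ± 0.15. These contrasts depended on the setting: with normexp background correction and quantile normalization, LPS minus control turned to 0.21 for Sptlc1 and 0.39 for Degs1, and HF minus control became 0.81 and 0.80.

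Sptlc2, the catalytic partner of Sptlc1, gave opposite pictures with its 2 probes. The brighter probe read 0.68 and 1.14 in control, 1.65 and 1.76 in LPS, 1.11 and 0.85 in HF, and 1.00 and 1.07 in LPS+HF. By that probe LPS was the highest group and the others overlapped, with LPS minus control at 0.80 ± 0.20 and LPS+HF minus LPS at -0.68 ± 0.20. The dimmer probe, annotated to the same transcript, read -1.62 and -2.20 in control, -2.36 and -2.30 in LPS, -1.28 and -1.62 in HF, and -1.77 and -1.78 in LPS+HF. By the dimmer probe LPS was the lowest group, with LPS minus control at -0.42 ± 0.23 and LPS+HF minus LPS at 0.55 ± 0.23. No direction is therefore given for Sptlc2.

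**Figure D2:**
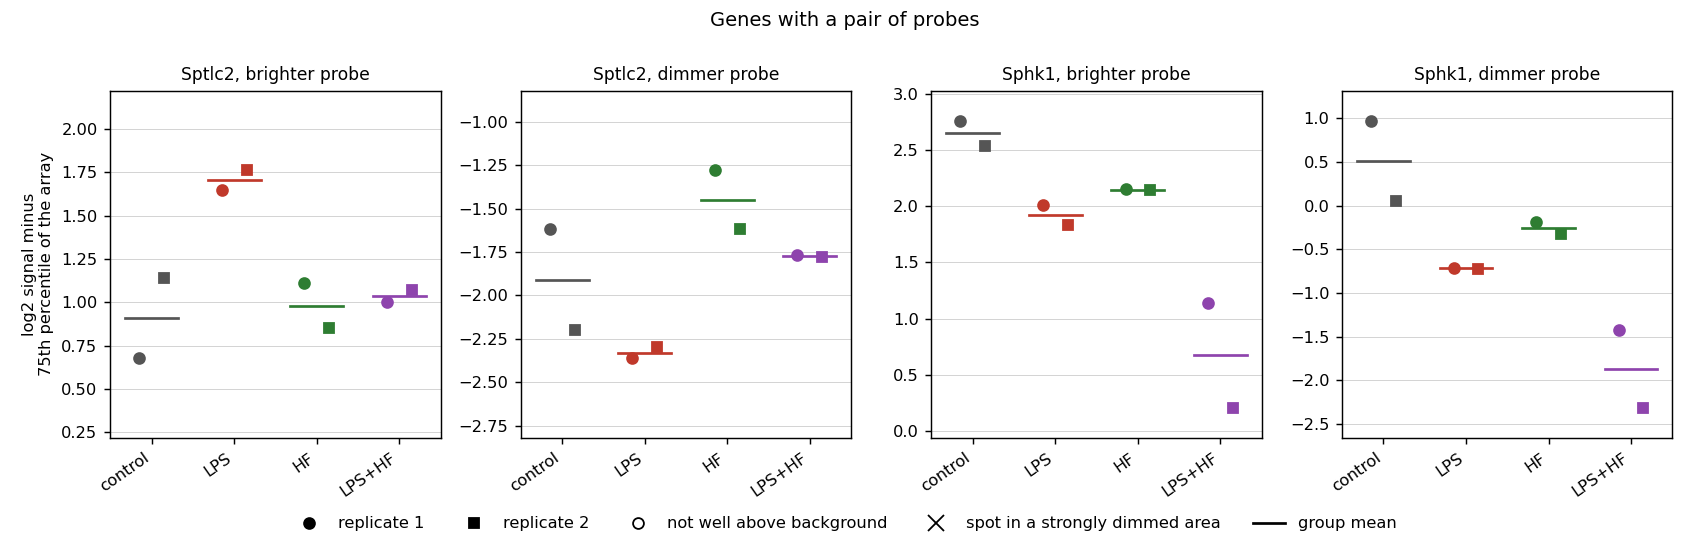
Scaled log2 signal (y axis) in the 4 groups for both probes of Sptlc2 and of Sphk1, with symbols as in the plot of all 10 genes. The LPS arrays are highest by the brighter Sptlc2 probe and lowest by the dimmer one, whereas both Sphk1 probes are lowest in LPS+HF.

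Ceramide synthases differ in the length of the fatty acid they attach. Cers2, which makes very-long-chain ceramides, read 2.85 and 2.72 in control, 2.88 and 2.76 in LPS, 3.30 and 3.23 in HF, and 3.39 and 3.30 in LPS+HF. The arrays with HF were all higher than those without, whether or not LPS was present. HF minus control was 0.48 ± 0.14 (1.39-fold) and LPS+HF minus LPS was 0.52 ± 0.14 (1.44-fold). LPS minus control was 0.03 ± 0.14. With normexp and quantile normalization LPS minus control became 0.81, HF minus control 1.08, LPS+HF minus LPS 0.44 and the interaction -0.65. Slide row moved with HF in the same way, so the 2 cannot be told apart.

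Cers4, a synthase of long and very-long acyl chains, had the widest range of group means, 4.01 log2 units. Its levels were -0.96 and -1.06 in control, -4.38 and -5.66 in LPS, -2.63 and -3.16 in HF, and -4.86 and -3.87 in LPS+HF. Control was highest and HF came next without overlap; LPS and LPS+HF overlapped at the bottom. Neither LPS array was well above background and only 1 of the 2 LPS+HF arrays was. The signal was therefore at least 9.03-fold lower in LPS than in control, taken against the lowest signal above background on each LPS array or the gene's own where that was higher; this limit belongs to other probes and is approximate. The fitted log2 difference was -4.01 ± 0.51, and -1.76 with the normexp background correction and quantile normalization. HF minus control was -1.88 ± 0.51 (3.69-fold lower). LPS+HF minus HF was -1.47 ± 0.51 and LPS+HF minus LPS was 0.65 ± 0.51, the last between groups that were mostly below background.

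Cers5 makes palmitoyl ceramide, as does Cers6. Its probe read 2.25 and 4.65 in control, 4.08 and 3.98 in LPS, 3.43 and 4.77 in HF, and 4.58 and 4.46 in LPS+HF. The low control and HF values came from the 2 arrays marked by the scanner, where the local deviation around the spot was -1.65 and -1.39 log2 units. LPS minus control was 0.58 ± 0.80 and turned to -0.64 ± 0.11 after the spatial correction, which dropped the spot on control replicate 1. HF minus control was 0.65 ± 0.80, and 0.13 after the correction. On the 4 arrays of LPS and LPS+HF the groups did not overlap, and LPS+HF minus LPS was 0.49 ± 0.80, or 0.46 ± 0.09 after the correction. Cers6 differed little: -0.06 and -0.55 in control, -0.43 and -0.63 in LPS, -0.30 and -0.51 in HF, and -0.62 and -0.31 in LPS+HF. All groups overlapped, and the differences ranged from -0.22 ± 0.22 for LPS minus control to 0.06 ± 0.22 for LPS+HF minus LPS. On control replicate 1 the local deviation around the Cers6 spot was 1.20, and LPS minus control was 0.34 after the correction and 0.12 with median scaling.

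**Figure D3:**
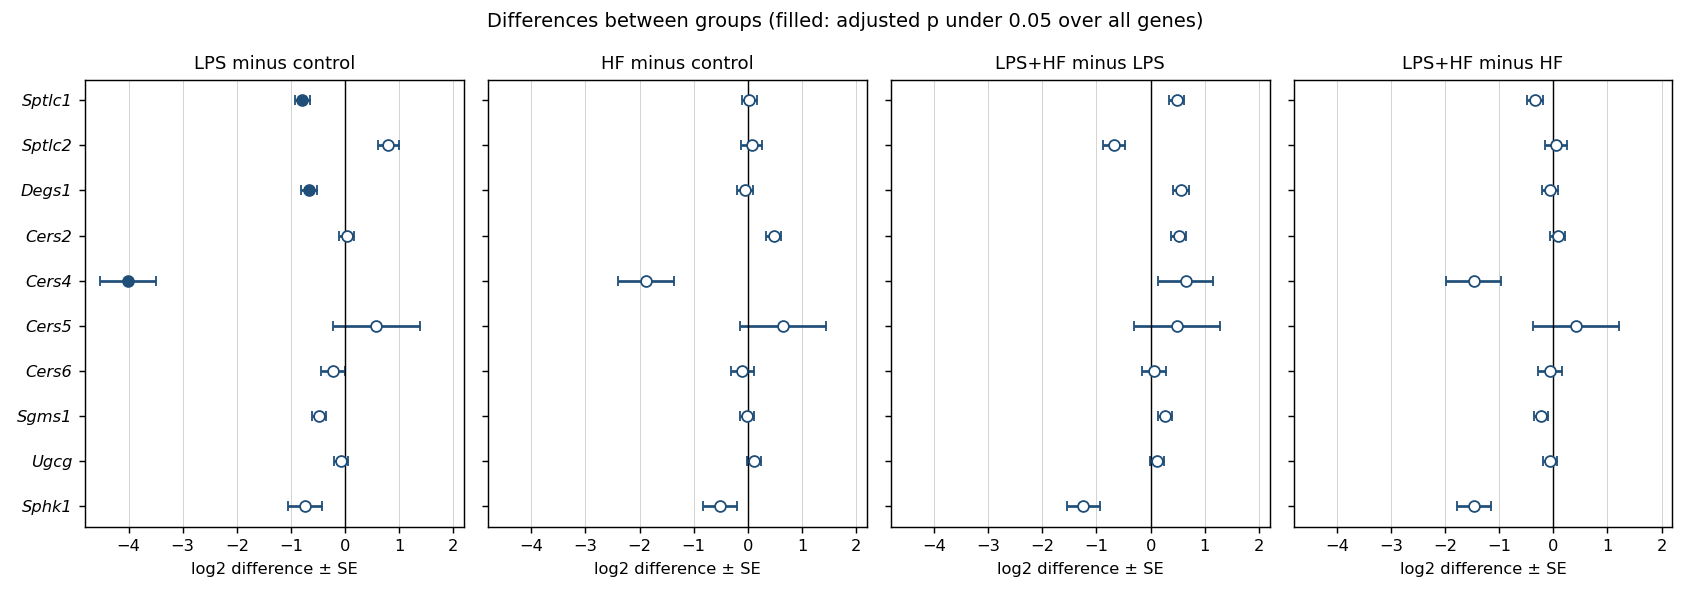
Log2 differences between groups (x axis) for the 10 genes (y axis) in 4 comparisons, with SE bars from the fit over all 8 arrays; filled symbols have an adjusted p under 0.05 over all genes tested, as a description of genes chosen by these signals. Cers4, Sptlc1 and Degs1 are filled in LPS minus control, at -4.01, -0.79 and -0.67, and no symbol is filled elsewhere. Both LPS spots of Cers4 were dim.

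Of the enzymes that use ceramide, Sgms1, the sphingomyelin synthase of the Golgi, read 3.28 and 3.17 in control, 2.74 and 2.72 in LPS, 3.25 and 3.18 in HF, and 3.04 and 2.96 in LPS+HF. LPS was lowest and LPS+HF intermediate, without overlap with either neighbour, while HF and control overlapped. LPS minus control was -0.49 ± 0.13 (1.41-fold lower) and LPS+HF minus LPS was 0.27 ± 0.13. Ugcg, which makes glucosylceramide and so opens the glycosphingolipid branch, was the flattest of the 10, with group means within 0.18 log2 units. It read -0.81 and -0.96 in control, -0.98 and -0.93 in LPS, -0.80 and -0.76 in HF, and -0.85 and -0.84 in LPS+HF. LPS overlapped control, and LPS+HF minus LPS was 0.11 ± 0.13. LPS minus control was -0.07 ± 0.13, and 0.28 with median scaling, which moved the median of all genes to 0.27.

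Sphk1, a kinase that makes sphingosine 1-phosphate, had the second-widest range of group means, 1.98. It read 2.76 and 2.54 in control, 2.01 and 1.83 in LPS, 2.15 and 2.14 in HF, and 1.14 and 0.21 in LPS+HF. The order was control, HF, LPS and LPS+HF, with no overlap between neighbours. LPS+HF minus LPS was -1.24 ± 0.31 (2.37-fold lower) and LPS+HF minus HF was -1.47 ± 0.31 (2.78-fold lower). The 2 LPS+HF arrays lay well apart, and LPS+HF minus LPS was -1.71 without the first and -0.78 without the second. LPS minus control was -0.74 ± 0.31. The second Sphk1 probe, annotated to another transcript, kept this order, at 0.97 and 0.05 in control, -0.71 and -0.72 in LPS, -0.19 and -0.32 in HF, and -1.42 and -2.31 in LPS+HF. With it, LPS+HF minus LPS was -1.15 ± 0.39. The local deviation around that spot was 1.01 on control replicate 1, whose level became -0.23 after the correction.

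Counted over the 10 genes with limma, 3 had an adjusted p under 0.05 over all genes tested in LPS minus control, all lower (Cers4, Sptlc1 and Degs1), and 0 were higher. Over all genes 6.34% were called lower and 4.80% higher in that comparison. The other comparisons called 0 of the 10. Over all genes, HF minus control called 0.882% (0.142% higher, 0.739% lower) and LPS+HF minus LPS 6.25% (2.99% higher, 3.26% lower). LPS+HF minus HF called 1.28% (0.904% higher, 0.374% lower). The interaction, which asks whether the LPS difference was another with HF, called 0.0534% (0.0134% higher, 0.0401% lower). Its value was 2.54 ± 0.72 for Cers4, 0.62 ± 0.21 for Degs1, 0.45 ± 0.20 for Sptlc1, -0.74 ± 0.43 for Sphk1 and 0.05 ± 0.19 for Cers2. The Cers4 value rests on 3 arrays where its spot was not well above background and has no settled size. With normexp and quantile normalization it turned to -0.28 for Degs1 and -0.39 for Sptlc1. At an unadjusted p under 0.05 the counts were 5, 2, 5, 2 and 3 of the 10 in these 5 comparisons, where 29.6%, 19.7%, 23.9%, 9.36% and 11.6% of all genes stood. The arrays of the compared groups did not overlap for 6 of the 10 with LPS against control, 1 higher and 5 lower, where 24.1% of all genes were higher and 33.0% lower (57.1% in all). With HF against control this held for 4, 2 in each direction (20.5% higher, 25.6% lower, 46.1% in all). Between LPS+HF and LPS it held for 8, 6 higher and 2 lower (32.7% higher, 41.2% lower, 73.9% in all). Between LPS+HF and HF it held for 6, 1 higher and 5 lower (18.2% higher, 35.2% lower, 53.3% in all). After the spatial correction limma called 1 higher (Sptlc2, by its brighter probe) and 5 lower (Cers4, Cers5, Degs1, Sgms1 and Sptlc1) in LPS minus control, where all genes stood at 11.9% and 19.3%. In LPS+HF minus LPS it called 4 higher (Cers2, Cers5, Degs1 and Sptlc1) and 1 lower (Sphk1), where all genes stood at 14.8% and 15.2%. In HF minus control it called Cers2 (0.58; all genes 4.58% higher), and in LPS+HF minus HF Sphk1 (-1.46; all genes 2.21% lower). The median difference of the 10 was -0.36 for LPS against control (-0.08 over all genes) and 0.01 for HF against control (-0.07). It was 0.37 for LPS+HF against LPS (-0.07), -0.06 for LPS+HF against HF (-0.08) and 0.11 for the interaction (0.02). Nothing is read from these counts, since the same signals chose the genes, and comparisons that share arrays are not independent of each other. Leaving out 1 array changed the calls: Cers4 passed in 7 of 8 such fits, failing without LPS replicate 2 (-3.37). Sptlc1 and Degs1 passed only in the 2 fits without a control array.

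The promoters of Cers4, Sptlc1 and Degs1 are shown because these were the 3 of the 10 past the threshold in LPS minus control; that choice uses the signals that chose the genes, and for Sptlc1 and Degs1 the direction turned under normexp. The sequences are the 250 bases before the gene start on the gene's strand, from RefSeq on GRCm38.p6, a later mouse build than the one named in the array files. Capitals mark matches, on either strand, to the GC box GGGCGG, the CCAAT box, the E-box CACGTG, the AP-1 site TGANTCA, the TATA box TATAAA or the NF-kB consensus.
Cers4, chr8:4493155-4493404, plus strand: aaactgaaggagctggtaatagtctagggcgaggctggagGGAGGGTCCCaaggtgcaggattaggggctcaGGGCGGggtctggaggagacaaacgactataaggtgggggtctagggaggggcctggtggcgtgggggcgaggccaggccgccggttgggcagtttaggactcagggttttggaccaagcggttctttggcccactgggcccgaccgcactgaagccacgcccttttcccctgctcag
Sptlc1, chr13:53377362-53377611, minus strand: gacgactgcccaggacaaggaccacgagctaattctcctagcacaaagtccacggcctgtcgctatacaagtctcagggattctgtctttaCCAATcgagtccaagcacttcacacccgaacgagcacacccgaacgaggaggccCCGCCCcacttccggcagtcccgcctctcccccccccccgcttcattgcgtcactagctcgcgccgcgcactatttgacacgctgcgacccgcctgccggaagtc
Degs1, chr1:182282196-182282445, minus strand: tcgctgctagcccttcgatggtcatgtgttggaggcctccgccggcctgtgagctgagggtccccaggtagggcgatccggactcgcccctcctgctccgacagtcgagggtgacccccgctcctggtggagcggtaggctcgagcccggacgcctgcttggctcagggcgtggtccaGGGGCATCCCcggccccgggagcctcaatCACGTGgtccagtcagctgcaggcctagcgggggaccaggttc
The Cers4 window held 1 NF-kB match and 1 GC box, the Sptlc1 window 1 CCAAT box and 1 GC box, and the Degs1 window 1 NF-kB match and 1 E-box, with no overlap between different motifs. Of the 32851 promoters in the table, 7.25% held the NF-kB consensus, 32.7% the GC box, 33.8% the CCAAT box and 6.02% the E-box. The AP-1 site (6.75% of all promoters) and the TATA box (12.4%) had no match in these 3 windows. No motif was common to all 3, and a match is only a match of letters.

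Other genes of the pathway were taken from a list of 64 written from general knowledge of sphingolipid metabolism, of which 50 were tested. In LPS minus control, 4 of the 50 rose, 2 fell and 44 did not pass (limma, adjusted over all genes; background 4.80% higher and 6.34% lower), with a median of 0.20. HF alone called 0 of the 50 in either direction, with 9 at an unadjusted p under 0.05 (19.7% of all genes). In LPS+HF minus LPS, 1 rose (background 2.99%), 3 fell (3.26%) and 46 did not pass, with a median of -0.08. LPS+HF minus HF and the interaction called 0, with 7 and 4 at an unadjusted p under 0.05 (9.36% and 11.6% of all genes). After the spatial correction 15 of the 50 were called in LPS minus control, 9 higher and 6 lower, and 18 in LPS+HF minus LPS, 6 higher and 12 lower. The background then was 11.9% higher and 19.3% lower, and 14.8% higher and 15.2% lower.

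**Figure D4:**
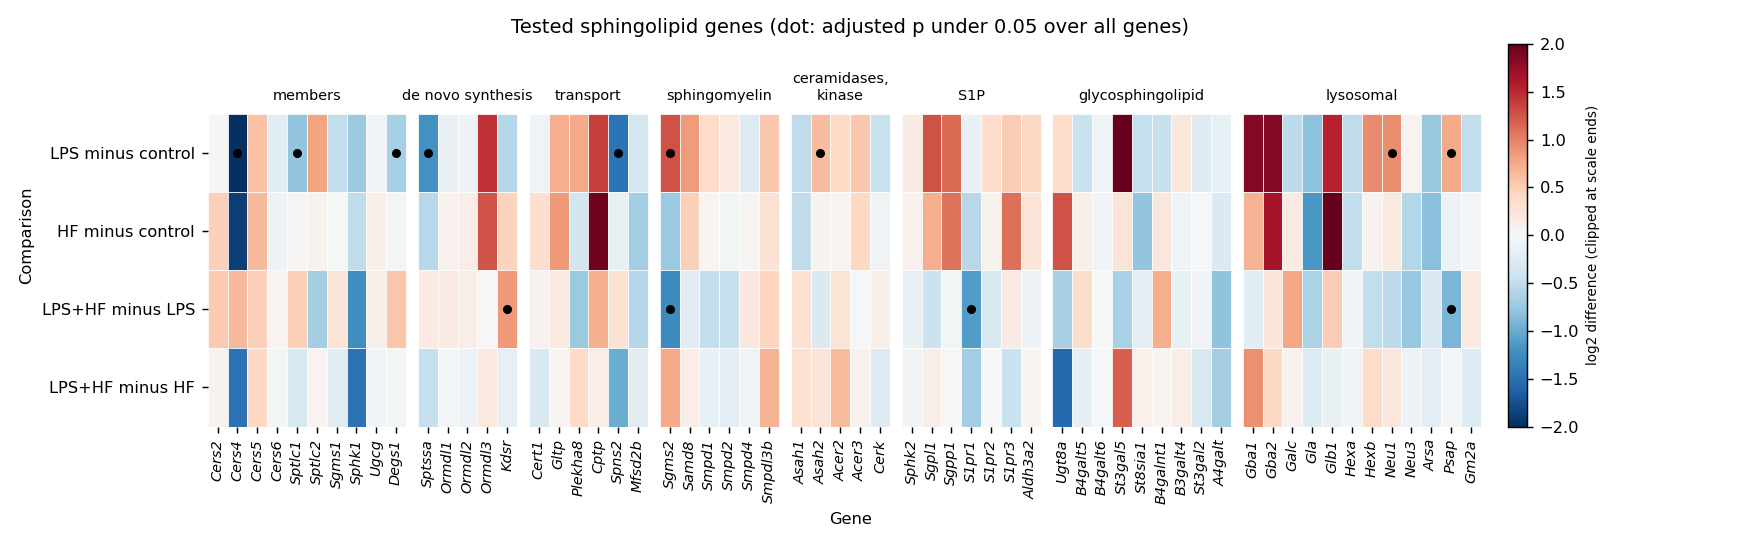
Log2 differences (colour, clipped at 2 in either direction) of the 10 genes and the 50 other tested sphingolipid genes (x axis, by role) in 4 comparisons (y axis); a dot marks an adjusted p under 0.05 over all genes tested. Dots stand in the LPS minus control and LPS+HF minus LPS rows, and none in the 2 others.

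In de novo synthesis, 1 of 5 tested genes fell with LPS. Sptssa, a small subunit that activates the complex of Sptlc1 and Sptlc2, read 5.03 and 4.67 in control, 3.68 and 3.60 in LPS, 4.32 and 4.28 in HF, and 3.85 and 3.78 in LPS+HF. Control was highest and LPS lowest, with no overlap among the 4 groups. It fell 2.31-fold (log2 -1.21 ± 0.16, adjusted p = 0.011 in limma), and leaving out each array in turn kept the call in 6 of 8 fits, all but those without an LPS array (log2 -1.39 to -1.03 over the 8 fits). Kdsr, the reductase of the second step, rose in LPS+HF against LPS. It read 1.53 and 1.91 in control, 1.10 and 1.16 in LPS, 2.12 and 2.23 in HF, and 2.04 and 1.95 in LPS+HF. LPS was the lowest group, and the rise from LPS to LPS+HF was 1.83-fold (log2 0.87 ± 0.17, adjusted p = 0.041 in limma). LPS minus control for Kdsr was -0.76 ± 0.09 after the spatial correction (adjusted p = 0.0024 in limma), with no call before it.

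Of 6 tested sphingomyelin genes 1 passed before the spatial correction. Sgms2, which makes sphingomyelin at the plasma membrane, read -2.64 and -3.33 in control, -1.66 and -1.77 in LPS, -3.72 and -3.75 in HF, and -2.87 and -3.08 in LPS+HF. LPS was the highest group. Sgms2 rose 2.41-fold with LPS (log2 1.27 ± 0.24, adjusted p = 0.028 in limma) and was 2.40-fold lower in LPS+HF than in LPS (log2 -1.26 ± 0.24, adjusted p = 0.04). Its spots were below background on control replicate 1, where the area was dimmed, and on HF replicate 1. After the correction, which dropped the spot on control replicate 1, the differences were 1.64 and -1.33, the first against control replicate 2 alone. With the correction, Samd8 was called in LPS minus control (0.45) and Smpd1 and Smpd2 in LPS+HF minus LPS (-0.53 and -0.51).

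Among ceramidases, which release sphingosine, Asah2 was called higher with LPS (1.52-fold, log2 0.61 ± 0.13, adjusted p = 0.036 in limma), from -2.69 and -2.68 to -2.11 and -2.05. It stood at -2.59 and -2.65 in HF and -2.32 and -2.42 in LPS+HF. The control replicate 1 spot was below background in a dimmed area, and the call was lost in 8 of 12 other settings. In the sphingosine 1-phosphate group 1 of 7 tested genes was called. S1pr1, a receptor for that lipid, read 1.10 and 0.55 in control, 0.66 and 0.73 in LPS, 0.34 and 0.20 in HF, and -0.27 and -0.58 in LPS+HF. LPS+HF was the lowest group, as for Sphk1, and LPS overlapped control. The local deviation around the S1pr1 spot was 0.69 on control replicate 1. After the spatial correction control read 0.23 and 0.34 and LPS 0.45 and 0.52, without overlap, and LPS minus control was not called. S1pr1 was 2.17-fold lower in LPS+HF than in LPS (log2 -1.12 ± 0.22, adjusted p = 0.044 in limma). Of 6 transport genes 1 was called, Spns2, which exports sphingosine 1-phosphate. It read -1.94 and -1.38 in control, -2.75 and -3.51 in LPS, -1.74 and -1.93 in HF, and -2.91 and -2.74 in LPS+HF. The groups with LPS were both below the groups without it. Spns2 fell 2.76-fold with LPS (log2 -1.46 ± 0.31, adjusted p = 0.035 in limma).

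Among 12 tested genes for taking sphingolipids apart, mostly in the lysosome, 2 rose with LPS and 1 fell in LPS+HF against LPS. Psap, the precursor of the saposins that present lipids to hydrolases, read 6.65 and 6.77 in control, 7.47 and 7.48 in LPS, 6.54 and 6.66 in HF, and 6.63 and 6.49 in LPS+HF. Only the LPS group stood apart. It rose 1.69-fold with LPS (log2 0.76 ± 0.14, adjusted p = 0.024 in limma) and was 1.88-fold lower in LPS+HF than in LPS (log2 -0.91 ± 0.14, adjusted p = 0.024). Neu1, a sialidase, rose 1.91-fold with LPS (log2 0.93 ± 0.21, adjusted p = 0.043 in limma), from 5.78 and 6.34 to 6.98 and 7.00; the difference was 0.63 after the spatial correction. It read 6.17 and 6.32 in HF and 6.55 and 6.39 in LPS+HF. None of the 9 tested glycosphingolipid genes passed in any comparison before the spatial correction.

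Apart from Sptssa, each of these calls passed in 2 of the 8 fits that left out 1 array, namely those without a control array.

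**Figure D5:**
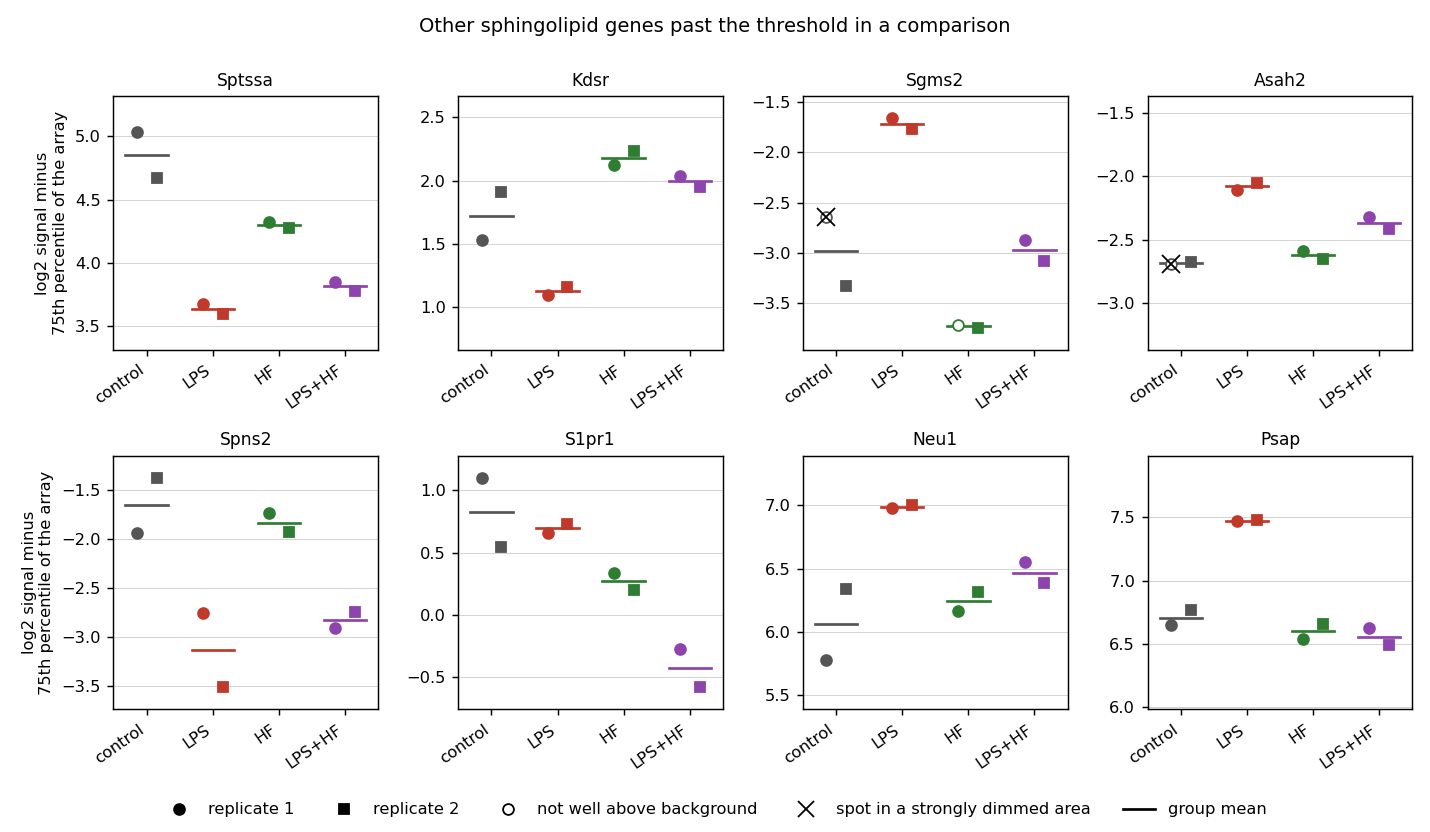
Scaled log2 signal (y axis) of the 8 other sphingolipid genes called in LPS minus control or LPS+HF minus LPS, in the 4 groups, with symbols as in the plot of the 10 enzymes. Sgms2, Asah2, Neu1 and Psap are highest in LPS, Sptssa, Kdsr and Spns2 have their lowest mean there, and S1pr1 is lowest in LPS+HF.

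The genes most like Cers4 over the 8 arrays, among 13801 others with a symbol, were Prdm11 (Pearson r 0.975), Gal3st2 (0.973) and Lmna (0.970), and 23 genes had an r over 0.95. The closest to Sphk1 were 0610040J01Rik (0.980), Mitf (0.980) and Hes6 (0.978), with 9 genes over 0.95. The 8 arrays share 4 treatments and 1 slide, and Cers4 was not well above background on 3 of them, so these are descriptions and the order of such close values is not settled.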

How the data were processed

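Messenger RNA was measured on 8 one-colour arrays, 2 for each of 4 groups. Per the file headers, the intensity of each spot was made with Agilent Feature Extraction 11.5.1.1, which subtracted background and corrected trends, without scaling between arrays. The log2 values of the series matrix deposited by the authors matched these signals after subtraction of the 75th percentile per array and then of the probe median (median difference per array at most 0.0053, largest 0.44 to 0.49 log2); column medians were -0.11 to 0.19.

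Signals were converted to log2, averaged over unflagged repeated spots and reduced by the 75th percentile of the array. RefSeq transcripts gave a symbol to 28026 of 55681 probes (50.3%), 21154 genes. A probe was kept (30342 were) if 1 group or more had it well above background on each of its arrays. The brightest was taken per gene or, without a symbol, per transcript or other name given on the array. That left 22460 genes so counted, 13802 of them with a symbol. Group means were fitted over all 8 arrays with limma 3.58.1 in R 4.3.3 (4 residual and 2.04 prior degrees of freedom), two-sided, with Benjamini-Hochberg adjustment over all genes and a threshold of 0.05. The SE pools all arrays; the SD of the difference between replicates was 0.99 log2 in control and 0.28, 0.49 and 0.34 in LPS, HF and LPS+HF, so it is narrow for control. The number of arrays limits the precision. The spatial correction subtracted local medians (window 31 by 15 spots) and dropped spots dimmed over 4-fold. The fit was tested on simulated data, where it missed most of the smaller changes. Marker list levels other than those printed are not reported here.

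Named beside the 10 genes are up to 6 other sphingolipid genes per comparison, those with the largest differences among genes that passed with arrays not overlapping, and the 3 genes most correlated with each of the 2 genes of widest range. The members, lists and alternatives were chosen with earlier results of these data known. Alternatives were normexp (offset 50, on median signals) with quantile normalization, quantile normalization, median scaling, the authors' matrix, other filters and probe rules, a trended robust variance, only the arrays compared, a replicate block, the spatial correction, and leaving out arrays. Slide and scan were not fitted as a block, since there was 1 of each. Tables were read in Python 3.11.15 (pandas 2.3.3, numpy 2.4.6, scipy 1.17.1), with matplotlib 3.10.9 for plots.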

Additional observations from a re-analysis of the deposited data

How the results depend on the processing

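Counts are of the 60 tested sphingolipid genes, the 10 enzymes and 50 others, past the threshold in limma. LPS minus control called 9, and 2 with normexp and quantile normalization, 3 with median scaling, 2 without the filter on dim probes, 0 with only the arrays compared, 21 after the spatial correction and 17 without control replicate 1 and HF replicate 1. The share of all genes was 11.1%, and in those settings 4.49%, 3.71%, 2.23%, 0.298%, 31.2% and 21.6%. LPS+HF minus LPS called 4, and in the same settings 0, 0, 0, 22, 23 and 22, with 7 under a trended and robust variance; all genes stood at 6.25%, then 1.05%, 0.890%, 0.457%, 32.9%, 30.0%, 32.9% and 7.71%. HF minus control, LPS+HF minus HF and the interaction called 0, and after the spatial correction 3, 5 and 2 (all genes 11.5%, 5.22% and 4.22%); the 2 were Neu3 (log2 -1.04) and S1pr1 (-0.85). Leaving out 1 array gave 0 to 40 in LPS minus control, 0 to 28 in HF minus control, 0 to 20 in LPS+HF minus LPS, 0 to 1 in LPS+HF minus HF and 0 to 25 for the interaction; 40, 28 and 25 came without control replicate 2, which leaves the uneven control array alone, with 52.7%, 45.3% and 35.3% of all genes called. With the replicate number as a block, 3 and 0 were called in LPS minus control and LPS+HF minus LPS (all genes 7.59% and 2.64%). Deviations of same-numbered arrays correlated from -0.09 to 0.27, which does not settle whether the numbers pair the arrays. The other settings stayed within 1.5 times. With median scaling the median difference of all genes was 0.27 for LPS against control (-0.08 otherwise) and 0.32 for HF against control (-0.07 otherwise), and all genes called with LPS numbered 572 higher and 262 lower, not 1078 and 1424. Quantile normalization gave 1183 and 1076 there. With normexp and quantile normalization LPS minus control turned to 0.21 for Sptlc1 and 0.39 for Degs1. Of the 1035 values of the 10 enzymes under alternatives, 932 moved by less than 1 SD, 101 moved further and 2 reversed a call; 77 changed sign. The named calls of other genes kept direction in all 207 fits and were lost in 101. The causes were not tested. Dim signals limit Cers4, and 2 arrays per group limit all values.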
